A study of Mus musculus with 6 samples.

Results

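Biotin-dependent carboxylases are the enzymes that use covalently bound biotin to add a carboxyl group to a metabolite. The set described here holds 9 genes, chosen by symbol in the deposited annotation, of 24033 genes with a probe set of their own. They are the carboxylase genes Pcx, Acaca, Acacb, Pcca, Pccb, Mccc1 and Mccc2, with Hlcs and Btd, whose enzymes attach and recycle biotin. Each of the 9 genes has 1 probe set of its own, so 9 of 9 were measured and no filter on low values was applied. The genes were put together with the differences of this same comparison known, in which Pcx and Acacb were already among the changed genes, so their differences between the groups are a description. The calls and 95% intervals printed for them show size and error and are no independent test.

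The 6 arrays are from MA-10 cells, a steroid-producing line from a mouse Leydig cell tumour, grown in the same horse serum medium on gelatin and transfected for 48 h. A control siRNA was given to 3 cultures and an siRNA against COUP-TFII, the orphan nuclear receptor encoded by Nr2f2, to the other 3, and the labels call them biological replicates. The labels name 1 cell line and no siRNA sequence, so the comparison is that of 1 tumour line and 1 named target. Each array read the RNA of a whole culture, so less transcript in all cells and the same loss in part of them cannot be told apart.

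In mammals biotin is joined to the carboxylases by holocarboxylase synthetase, and biotinidase frees it again when the proteins are broken down. Pyruvate carboxylase makes oxaloacetate in the mitochondrion, which refills the citric acid cycle and starts gluconeogenesis. The 2 acetyl-CoA carboxylases make malonyl-CoA, the building block of fatty acids and the inhibitor of acyl group import into mitochondria. Propionyl-CoA carboxylase and methylcrotonoyl-CoA carboxylase work in the breakdown of branched-chain amino acids, and each is built from an alpha subunit that carries biotin and a beta subunit that does not.

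The authors' normalized log2 values were used unchanged. Array medians were 7.571, 7.560 and 7.564 in control arrays and 7.595, 7.595 and 7.596 in COUP-TFII siRNA arrays, so every control median was the lower. Nr2f2, the targeted gene, read 8.98, 8.97 and 9.19 in control arrays and 8.25, 8.42 and 8.56 in COUP-TFII siRNA arrays, and fell by 0.63 on the log2 scale (SE 0.09, limma adjusted p = 0.00802), so that 64.4% of the control level remained. Calls were made in 1 limma fit of all 26836 probe sets with a symbol, at a p under 0.05 after Benjamini-Hochberg adjustment, which gave 783 lower and 426 higher, and 1184 lower and 308 higher after every array was centred on its median. The Leydig cell genes Star, Cyp11a1, Hsd3b1, Cyp17a1, Lhcgr, Nr5a1 and Prlr were measured on single-gene probe sets at percentiles 54.5 to 97.5 of mean expression. Of these 7, 5 were called lower after COUP-TFII siRNA and 0 higher. The falls were Hsd3b1 at -0.97, Star at -0.78, Prlr at -0.51, Lhcgr at -0.35 and Cyp11a1 at -0.33. The other 2 were not called. Nr5a1 differed by -0.02 (SE 0.05), and Cyp17a1 went the other way at 0.34 (SE 0.13, limma adjusted p = 0.201), with overlapping groups. The median over the 7 was -0.35, and the part of these shifts in the carboxylase differences was not tested. Of 24 markers of Sertoli, germ, endothelial, peritubular and fibroblast cells and macrophages, 1 was called lower (Ddx4) and 0 higher. These ran from percentile 9.0 of mean expression for Sycp3 to 96.5 for Clu. Kit at 95.7 and Cdh5 at 93.9 were also bright, so not all of these genes were low in this line.

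The carboxylase group did not move as one. Pcx and Acacb were the 2 of 9 called lower, where 2.92% of all probe sets were, and 0 were called higher, where limma called 1.59% of all probe sets higher. Of the 9 differences, 7 were below 0 and 2 above, with a median of -0.08 against 0.01 over all probe sets. The groups did not overlap in 4 members, each lower after COUP-TFII siRNA, where 12.2% of all probe sets were lower without overlap. Because this comparison chose the set, nothing is read from these counts. All 9 probe sets were bright, at percentiles 65.1 to 89.4 of mean expression.

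**Figure D1:**
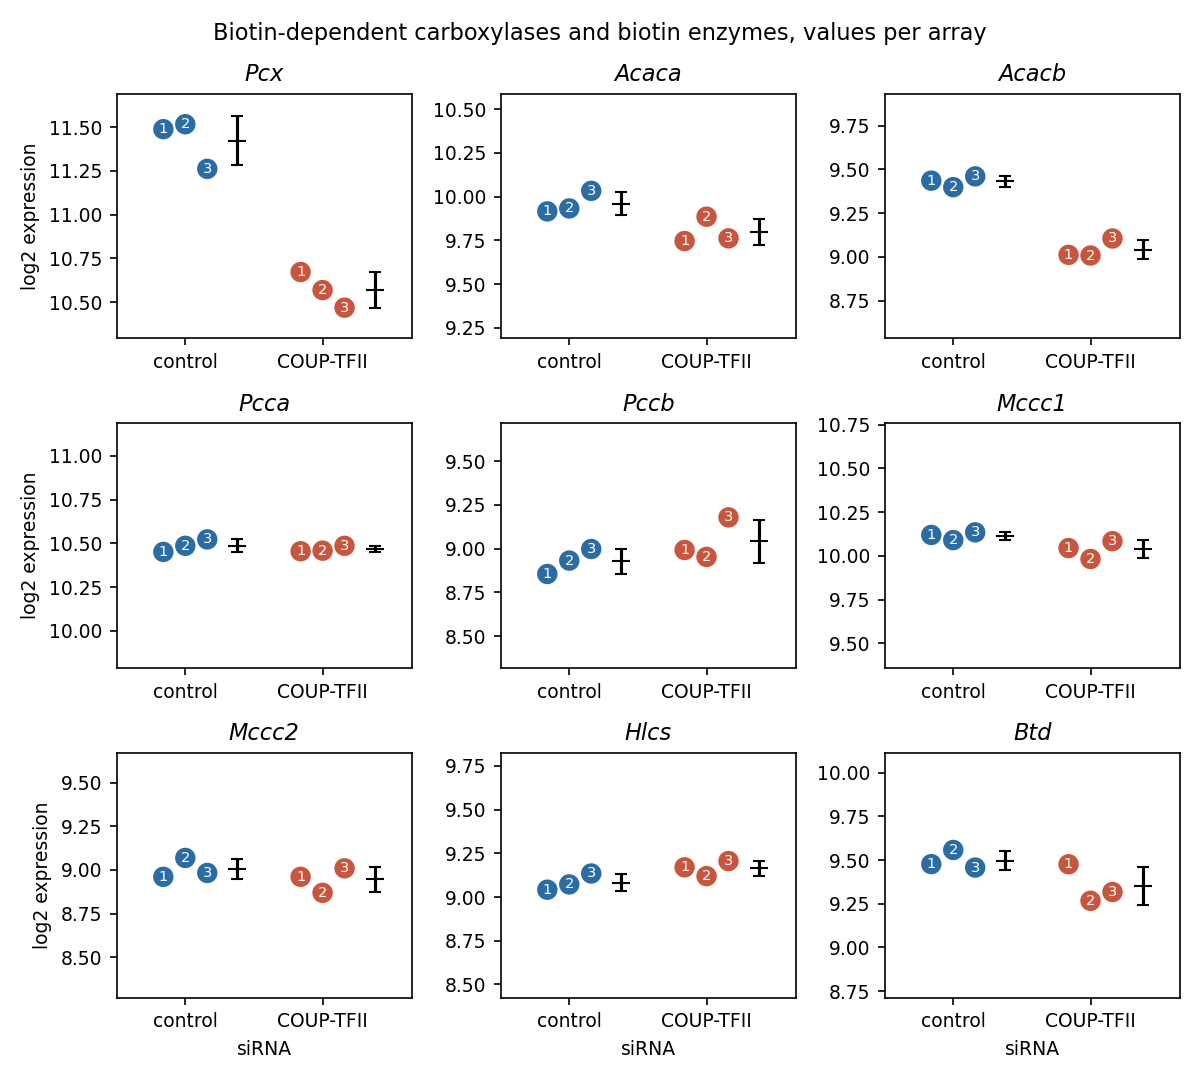
Normalized log2 expression of the 9 genes on the 6 arrays (y axis, each panel spanning the same 1.4 log2 units), with numbered points for replicates 1 to 3 of control siRNA (blue) and COUP-TFII siRNA (red), and black marks for mean ± SD (n = 3). Pcx and Acacb show a wide gap between the groups, Acaca and Mccc1 a narrow one, and the other 5 genes overlap.

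Pyruvate carboxylase had the widest gap of the 9. Pcx (probe set 10460400, chromosome 19) read 11.49, 11.52 and 11.26 in control arrays and 10.67, 10.57 and 10.47 in COUP-TFII siRNA arrays. Control replicate 3 was the lowest control, and it still lay 0.59 above the highest COUP-TFII siRNA array. The means were 11.42 ± 0.14 and 10.57 ± 0.10 (SD, n = 3), a difference of -0.85 (SE 0.08), which leaves 55.4% of the control level. Ranked by difference, this was the 12th lowest of 26836 probe sets. In the authors' deposited table of all probe sets the ratio to control siRNA is 0.548 for Pcx.

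Acacb, the acetyl-CoA carboxylase of the mitochondrial outer membrane whose malonyl-CoA restrains fatty acid oxidation, came second. Its probe set 10524460 on chromosome 5 read 9.44, 9.40 and 9.46 in control arrays and 9.01, 9.01 and 9.10 in COUP-TFII siRNA arrays. The replicates lay close together, and the lowest control was 0.29 above the highest COUP-TFII siRNA array. The difference was -0.39 (SE 0.05), or 76.3% of control. In the authors' deposited table its ratio is 0.754. Of the 9 genes, Pcx and Acacb are the 2 that stand in the authors' deposited list of 334 changed probe sets.

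Acaca encodes the cytosolic acetyl-CoA carboxylase that feeds fatty acid synthesis. It read 9.92, 9.93 and 10.03 in control arrays and 9.75, 9.89 and 9.76 in COUP-TFII siRNA arrays. The groups were apart by 0.03, the distance from control replicate 1 to COUP-TFII siRNA replicate 2. The difference was -0.16 (SE 0.06, 95% interval -0.29 to -0.03, not adjusted for the number of probe sets), and it was not called. The log2 ratio of Acacb over Acaca within each array, set to a control mean of 0, was 0.05, -0.01 and -0.04 in control arrays and -0.21, -0.35 and -0.13 in COUP-TFII siRNA arrays, so the mitochondrial isoenzyme was lower by a further 0.23 on the log2 scale in mean. A second probe set is annotated to Acaca together with the predicted gene Gm5182. It read 10.35, 10.41 and 10.43 in control arrays and 10.24, 10.19 and 10.16 in COUP-TFII siRNA arrays, a difference of -0.20 (SE 0.05) that was not called, and which of the 2 genes it reads is uncertain.

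**Figure D2:**
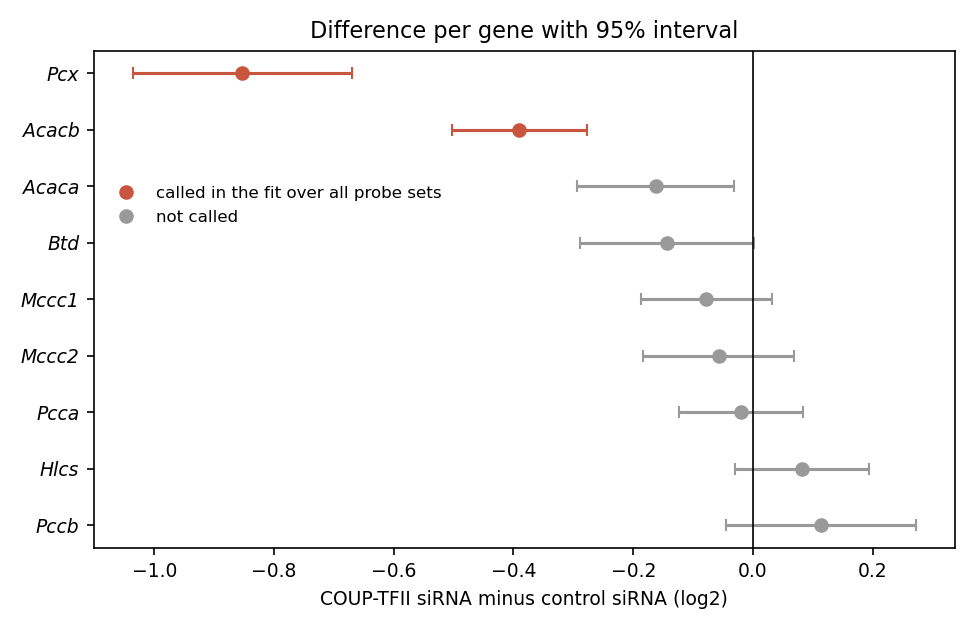
COUP-TFII siRNA minus control siRNA (x axis, log2) for each of the 9 genes, with 95% intervals from the limma fit, 3 arrays per group. Pcx at -0.85 and Acacb at -0.39 (red) are the 2 called in the fit over all probe sets, and the intervals of the 6 genes from Btd to Pccb include 0.

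Promoter windows are shown for Pcx and Acacb, since COUP-TFII binds repeats of the 6-base motif AGGTCA and these were the 2 members called lower. They are RefSeq windows of build GRCm38.p6, 250 bases before to 50 after an annotated start, written 5′ to 3′ along the gene with capitals for AGGTCA or GGGTCA on either strand, which read TGACCT or TGACCC when on the opposite strand. The table matched 9 of 9 genes, with 13 windows.
Pcx, start at the gene's 5′ end, chr19:4510222-4510521, plus strand: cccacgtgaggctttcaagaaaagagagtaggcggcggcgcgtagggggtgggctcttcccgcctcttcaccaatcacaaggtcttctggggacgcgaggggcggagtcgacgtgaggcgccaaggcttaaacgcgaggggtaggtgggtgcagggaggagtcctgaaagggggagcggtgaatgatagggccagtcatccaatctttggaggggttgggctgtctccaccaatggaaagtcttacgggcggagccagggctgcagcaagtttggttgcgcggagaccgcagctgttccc
Pcx, start 83847 bases further into the gene, chr19:4594069-4594368, plus strand: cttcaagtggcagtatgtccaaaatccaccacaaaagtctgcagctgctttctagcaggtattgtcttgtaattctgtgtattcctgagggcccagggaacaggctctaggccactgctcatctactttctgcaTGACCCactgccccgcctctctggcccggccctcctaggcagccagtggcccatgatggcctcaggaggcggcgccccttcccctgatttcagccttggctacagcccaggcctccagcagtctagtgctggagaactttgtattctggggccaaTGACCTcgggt
Acacb, start 19197 bases into the gene, chr5:114165268-114165567, plus strand: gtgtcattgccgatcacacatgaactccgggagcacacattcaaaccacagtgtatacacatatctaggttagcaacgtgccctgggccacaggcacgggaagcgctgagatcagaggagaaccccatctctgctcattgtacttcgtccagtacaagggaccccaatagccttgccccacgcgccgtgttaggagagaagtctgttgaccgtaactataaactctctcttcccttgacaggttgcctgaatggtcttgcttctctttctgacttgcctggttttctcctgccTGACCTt
The first Pcx window holds no exact match. The inner Pcx window holds GGGTCA at -116 and AGGTCA at 40, and the Acacb window AGGTCA at 44, each on the strand opposite the gene, counted from 1 at the start with the base before it as -1. The Pcx probe set is annotated to several transcripts and gives them 1 value.

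The motifs were also found in both windows of Pcca and in 1 of 2 windows of Hlcs, both not called. In all, 5 of 13 windows, or 38.5%, held AGGTCA or GGGTCA, against 27.5% of 32851 windows of all genes. A direct repeat of the 2 motifs with 0 to 5 bases between them stood in 0 of the 13 and in 0.295% of all windows. The single Acaca window starts 65803 bases inside the gene, so for Acaca and Acacb starts nearer the 5′ end were not analysed here. A match of letters describes the window and says nothing of binding in these cells.

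Propionyl-CoA carboxylase, which clears propionyl-CoA from amino acids and odd-chain fatty acids, showed overlapping groups for both subunits. Pcca, the biotin-carrying alpha subunit, read 10.45, 10.49 and 10.52 in control arrays and 10.46, 10.46 and 10.49 in COUP-TFII siRNA arrays. Its difference of -0.02 (SE 0.05, 95% interval -0.12 to 0.08) was the smallest of the 9 in size. Pccb, the beta subunit with the carboxyl transfer site, read 8.855, 8.932 and 8.998 in control arrays and 8.992, 8.953 and 9.179 in COUP-TFII siRNA arrays. COUP-TFII siRNA replicate 3 alone lay above all controls. The difference was 0.11 (SE 0.07, 95% interval -0.05 to 0.27), the largest upward one of the set, and it was not called.

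Methylcrotonoyl-CoA carboxylase, a step of leucine breakdown, had both subunits slightly below control in mean. Mccc1, the alpha subunit, read 10.12, 10.09 and 10.13 in control arrays and 10.04, 9.98 and 10.08 in COUP-TFII siRNA arrays. These groups did not overlap, but the gap was 0.0061, and the difference of -0.08 (SE 0.05, 95% interval -0.19 to 0.03) was not called. Mccc2, the beta subunit, read 8.96, 9.07 and 8.98 in control arrays and 8.96, 8.87 and 9.01 in COUP-TFII siRNA arrays, which overlap, and differed by -0.06 (SE 0.06, 95% interval -0.18 to 0.07). The log2 ratio of Mccc1 over Mccc2 within arrays differed by -0.02 between the groups and that of Pcca over Pccb by -0.13.

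The 2 genes that handle biotin itself lay on opposite sides of 0. Hlcs, the ligase that loads every carboxylase with biotin, read 9.04, 9.07 and 9.13 in control arrays and 9.17, 9.12 and 9.21 in COUP-TFII siRNA arrays. COUP-TFII siRNA replicate 2 lay among the controls, and the difference was 0.08 (SE 0.05, 95% interval -0.03 to 0.19). Btd, biotinidase, read 9.48, 9.56 and 9.46 in control arrays and 9.48, 9.27 and 9.32 in COUP-TFII siRNA arrays. Replicates 2 and 3 of COUP-TFII siRNA lay below all controls, while replicate 1 lay within them. The difference was -0.14 (SE 0.06, 95% interval -0.29 to 0.00), and neither gene was called.

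Biotin and short-chain acids enter cells and acyl-CoA pools through a further list of 6 genes, of which limma called 0, with 0 at an unadjusted p under 0.05. The sodium-dependent vitamin transporter Slc5a6, which imports biotin, differed by -0.01 (SE 0.05, limma adjusted p = 0.915). The monocarboxylate transporter Slc16a1 differed by 0.09 (SE 0.05, adjusted p = 0.438) and the acetyl-CoA synthetase Acss1 by 0.09 (SE 0.06, adjusted p = 0.493). In this and the lists that follow, 1 probe set stands for each gene, and the background is 3.03% of 24033 genes called lower and 1.6% called higher.

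Of 32 genes of pyruvate entry, oxaloacetate and gluconeogenesis, the routes on either side of Pcx, 0 were called lower and 1 higher, although 22 lay below 0. At an unadjusted p under 0.05 in the limma fit, 12 were lower and 5 higher, where 10.1% of all genes were lower and 9.59% higher. The 1 rise was Pdp2, a phosphatase that activates pyruvate dehydrogenase, from 8.82, 8.89 and 8.85 to 9.09, 9.15 and 9.12. It rose by 0.27 (SE 0.05, limma adjusted p = 0.0169). Fbp2, a fructose bisphosphatase, differed by -0.27 (SE 0.07, adjusted p = 0.0582), the malate dehydrogenase Mdh1 by -0.19 (SE 0.05, adjusted p = 0.0713) and the citrate carrier Slc25a1 by -0.16 (SE 0.04, adjusted p = 0.0809). Genes next to Pcx, named after their values were seen, were not called. Mpc1 and Mpc2, the pyruvate carrier of mitochondria, differed by -0.13 (SE 0.06) and -0.04 (SE 0.06), and Pck2, which draws on oxaloacetate, by -0.10 (SE 0.06). For Pdp2 the adjusted p was 0.0634 without control siRNA replicate 3 and 0.0522, 0.0804 and 0.0589 without COUP-TFII siRNA replicates 1, 2 and 3.

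**Figure D3:**
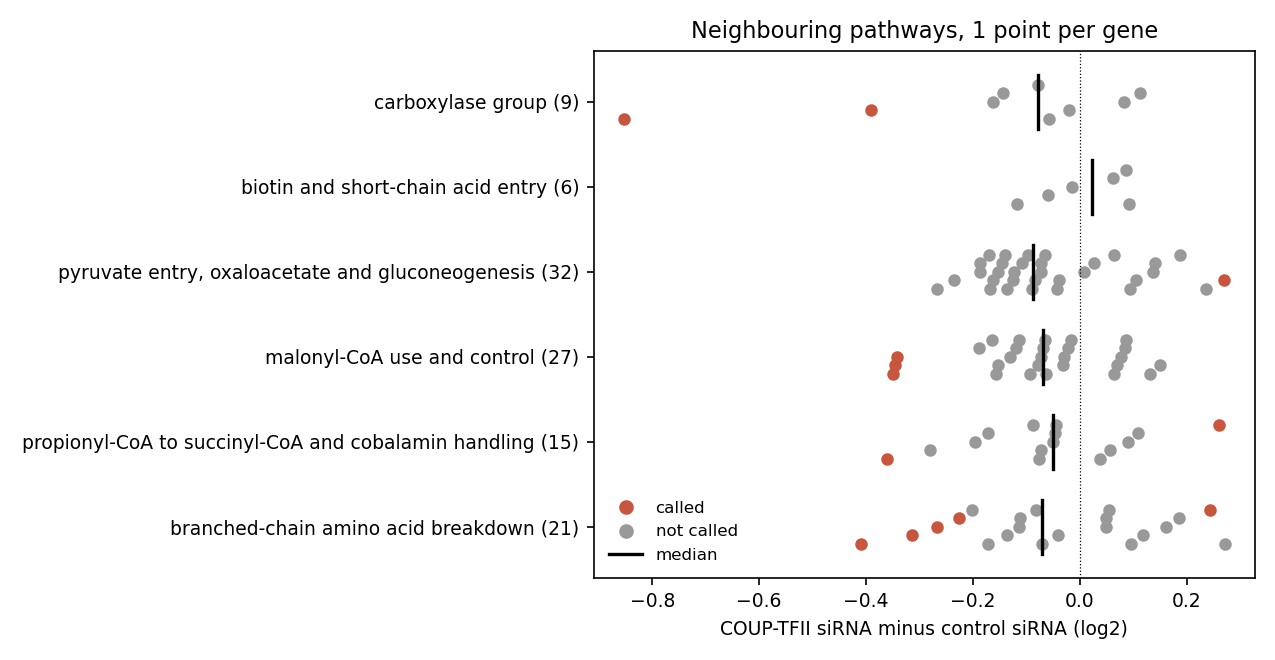
COUP-TFII siRNA minus control siRNA (x axis, log2) for the carboxylase group and 5 lists of neighbouring genes, 1 point per gene with the number measured in brackets, red where called, and black bars at the median. Medians of the 5 lists run from -0.09 for pyruvate entry to 0.02 for biotin entry, and Pcx at -0.85 lies below every gene of the lists.

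Of 27 genes that use or control malonyl-CoA, the product of Acaca and Acacb, 3 fell and 0 rose, with 20 below 0. At an unadjusted p under 0.05 in the same fit, 9 were lower and 1 higher. Cpt2, the inner membrane enzyme of acyl group import, read 10.83, 10.81 and 10.90 in control arrays and 10.44, 10.54 and 10.53 in COUP-TFII siRNA arrays, and fell by 0.34 (SE 0.05, limma adjusted p = 0.0102). Thrsp, a lipogenic protein known from liver, fell by 0.35 (SE 0.05, adjusted p = 0.0121). Prkaa2, a catalytic subunit of AMP-activated kinase, which phosphorylates and inhibits acetyl-CoA carboxylases, fell by 0.34 (SE 0.06, adjusted p = 0.0212). The other catalytic subunit, Prkaa1, named after its values were seen, differed by 0.09 (SE 0.05, adjusted p = 0.434) and was not called. Oxsm, of mitochondrial fatty acid synthesis, differed by -0.19 (SE 0.06, adjusted p = 0.101). The enzymes nearest to malonyl-CoA, named after their values were seen, were not called: Acly differed by 0.08 (SE 0.05), fatty acid synthase Fasn by -0.03 (SE 0.06), malonyl-CoA decarboxylase Mlycd by -0.16 (SE 0.08) and Cpt1a, the enzyme malonyl-CoA inhibits, by -0.06 (SE 0.05). Adjusted p for Thrsp was 0.0514 without control siRNA replicate 3 and 0.0613 and 0.0525 without COUP-TFII siRNA replicates 2 and 3. For Prkaa2 it was 0.0502 and 0.0775 without control siRNA replicates 2 and 3 and 0.0833 and 0.0916 without COUP-TFII siRNA replicates 1 and 2.

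Downstream of propionyl-CoA carboxylase, 15 genes of the path to succinyl-CoA and of cobalamin handling were measured, of which 1 fell and 1 rose. Mtrr, which keeps cobalamin-dependent methionine synthase active, read 10.227, 10.357 and 10.304 in control arrays and 9.929, 9.880 and 9.997 in COUP-TFII siRNA arrays, and fell by 0.36 (SE 0.05, limma adjusted p = 0.0107). Suclg2, a subunit of succinyl-CoA synthetase, rose by 0.26 (SE 0.06, adjusted p = 0.0439). The cobalamin genes Mmab and Mmadhc differed by -0.28 (SE 0.08, adjusted p = 0.0803) and -0.20 (SE 0.05, adjusted p = 0.0879). Mcee and Mut, the epimerase and mutase that act directly after the carboxylase, were named after their values were seen and were not called, at -0.17 (SE 0.05, adjusted p = 0.0933) and 0.11 (SE 0.05, adjusted p = 0.303). Leaving out COUP-TFII siRNA replicate 2 put the adjusted p of Mtrr at 0.0611. Suclg2 missed the threshold whichever of the 6 arrays was left out, with adjusted p from 0.0775 to 0.116, and also after median centring (0.0586).

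Among 21 genes of branched-chain amino acid breakdown, where methylcrotonoyl-CoA and propionyl-CoA arise, 4 fell and 1 rose. The hydratase Echs1, which also serves fatty acid oxidation, read 11.39, 11.44 and 11.47 in control arrays and 11.11, 11.07 and 11.18 in COUP-TFII siRNA arrays. It fell by 0.31 (SE 0.05, limma adjusted p = 0.0134) and the dehydrogenase gene Acadsb by 0.27 (SE 0.06, adjusted p = 0.0388). Bckdk, the kinase that inhibits the branched-chain ketoacid dehydrogenase, fell by 0.23 (SE 0.05, adjusted p = 0.0422) and was named after its values were seen. Dbt, the core subunit of that dehydrogenase, rose by 0.24 (SE 0.05, adjusted p = 0.0277). The leucine steps directly around methylcrotonoyl-CoA carboxylase, likewise named afterwards, were not called, with Ivd before it at 0.05 (SE 0.06) and Auh after it at -0.08 (SE 0.05).

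The calls of these 4 genes depended on single arrays. Echs1 had an adjusted p of 0.0567 without control siRNA replicate 3 and of 0.0584 and 0.0692 without COUP-TFII siRNA replicates 1 and 2. Dbt missed the threshold without any 1 of the 6 arrays (0.0594 to 0.0923), and so did Bckdk (0.0716 to 0.14). Acadsb kept its call without control siRNA replicate 1, and without each of the other 5 arrays its adjusted p was 0.0812 to 0.144. Over the 5 lists together, 8 of 101 genes fell, 3 rose and 67 lay below 0, which is 66.3% against 43.7% of all genes, with a median of -0.07. Median centring gave 14 falls and 2 rises there, and quantile normalization 7 and 5. The lowest percentiles of mean expression were 52.9, 59.4 and 60.0 in the malonyl-CoA, propionyl-CoA and branched-chain lists. They were 16.1 and 24.0 in the biotin and pyruvate lists. The 43.7% is over genes of all brightness and was not matched to the lists.

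The genes whose values over the 6 arrays were most like those of Pcx were found by the root mean square difference after each gene's own mean was subtracted, among 17469 named genes. Adam23, a cell surface protein of the ADAM family, was nearest at 0.08, followed by Lgmn, the lysosomal protease legumain, at 0.08 and the cholesterol importer Star at 0.09. The glutathione transferases Gsta2 and Gsta4 came next, each at 0.10, while the median over all genes was 0.45. Adam23 read 10.55, 10.63 and 10.50 in control arrays and 9.89, 9.81 and 9.73 in COUP-TFII siRNA arrays. Nearest to Acacb were the organic cation exporter Slc47a1 at 0.01, Selenbp2 at 0.02 and the CTP synthetase Ctps2 at 0.02, against a median of 0.21. Slc47a1 read 10.96, 10.95 and 10.99 in control arrays and 10.54, 10.51 and 10.62 in COUP-TFII siRNA arrays. All 8 share the arrays and the group difference that chose Pcx and Acacb, so the likeness is a description over 6 arrays.

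**Figure D4:**
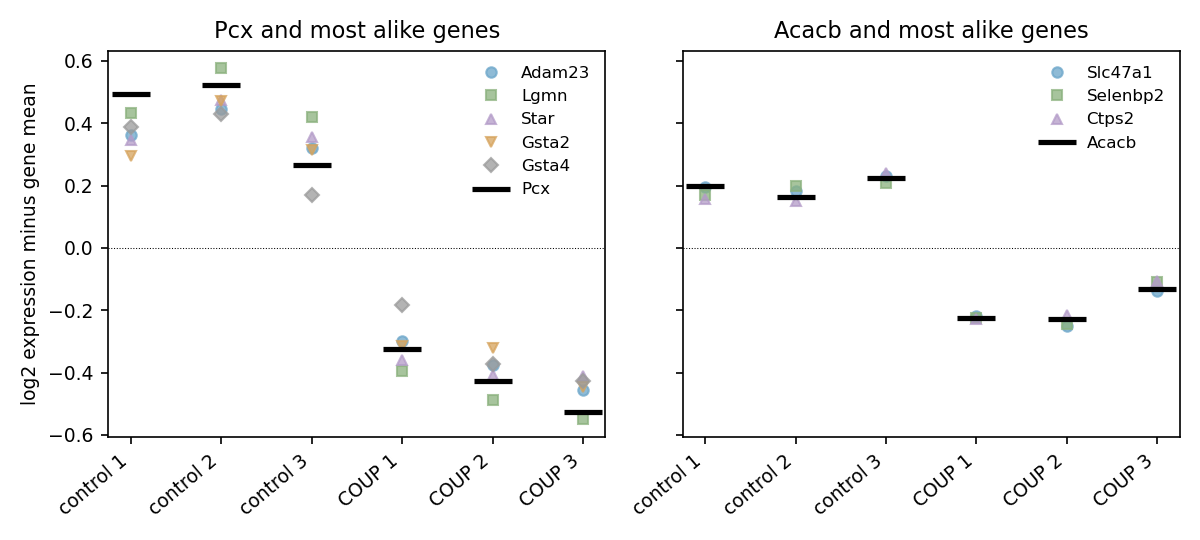
Log2 expression minus each gene's mean over the 6 arrays (y axis) by array (x axis), for Pcx with its 5 most alike genes and Acacb with its 3, black bars for Pcx and Acacb. Control arrays lie above 0 and COUP-TFII siRNA arrays below 0 for every gene shown.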

How the data were processed

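RNA of 6 MA-10 cultures was measured on Affymetrix arrays from biotinylated cDNA, per the labels' protocols, with Partek 7.0 named in the submitters' processing notes. The authors deposited normalized log2 values for 35556 probe sets. How they were background-corrected, summarised and normalized, and on which genome build, is not stated in the labels or tables used, and a signal level does not compare 2 probe sets. The authors' deposited tables also give a linear ratio, a signed fold (a score) and a p-value, which were copied and not used in any test. The heading of that p-value does not say whether it was adjusted.

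Of the probe sets, 26836 have a symbol, 25454 of them exactly 1, and 27 symbols turned into dates in the deposited table were restored from its gene description. They were fitted with limma 3.58.1 (lmFit, eBayes) in R 4.3.3, with group as the only term, and p-values were adjusted by Benjamini-Hochberg over all 26836. The fit was tested on simulated data. Protein sequences were not analysed here. A few list genes are counted but not reported by name. In the lists, the brightest single-symbol probe set stands for a gene, and Cpt1b, Mmut (measured as Mut), Slc7a5, Insl3 and Rhox5 had none. Members, lists and naming rules were chosen with earlier results of these data known. From each list the text names up to 4 genes with the smallest p, called ones first, and at most 2 where none was called. It also names the 5 genes most like Pcx and the 3 most like Acacb, without predicted genes or small RNAs, pseudogenes and chemosensory receptors. The labels do not say whether same-numbered arrays of the 2 groups are paired. Their deviations from the group means correlated across probe sets with r = 0.11, -0.05 and 0.17. For arrays of different numbers r ran from -0.22 to 0.13. With 3 arrays per group these values cannot decide whether the samples are paired, so the replicate number was used as a block only in an alternative. The number of arrays limits the precision, and 16 alternatives were tried.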

Additional observations from a re-analysis of the deposited data

How the results depend on the processing

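Under all 16 alternatives Pcx and Acacb were the 2 members called and both lower, with differences of -0.93 to -0.79 for Pcx and -0.42 to -0.37 for Acacb, and the other 7 members were called in none. Nr2f2 also kept its call, at -0.71 to -0.56. For Pcca median centring moved the difference from -0.02 to -0.05, less than its SE of 0.05. The replicate number as a block gave 484 lower and 227 higher probe sets in place of 783 and 426, and among the named pathway genes it took the calls of Suclg2 (adjusted p = 0.0506), Dbt (0.054), Acadsb (0.0684) and Bckdk (0.0611) and gave Fbp2 one (0.0479). Whole-table counts were 1184 lower after median centring, 1455 lower and 920 higher among probe sets brighter than the median, 291 and 145 when probe sets without a symbol were added, and 1317 and 815 where the prior followed intensity. Without 1 array they were 210 to 518 lower and 96 to 240 higher. Of the pathway genes, 14 were lower after median centring, 24 lower and 8 higher among brighter probe sets, 5 and 0 with all probe sets, 24 and 6 with that prior, and 5 higher after quantile normalization. Without 1 array 2 to 7 were lower and 0 to 1 higher. No result reversed, and the cause of these shifts was not tested. Adding probe sets without a symbol also took the calls of Pdp2 (adjusted p = 0.0502), Prkaa2 (0.0676), Dbt (0.0712), Acadsb (0.0979), Suclg2 (0.107) and Bckdk (0.0953), and quantile normalization that of Bckdk (0.0557). Fbp2, Mdh1 and Mmab passed under 4 alternatives and Slc25a1, Oxsm and Mmadhc under 3, with smallest adjusted p from 0.0099 to 0.0368. Cpt2 was called under all 16.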

Other observations

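The authors' deposited tables hold 2 p-values for each of the changed members with the same ratio. For Pcx the authors' deposited table of all probe sets gives 1.34e-05 and their deposited list of changed ones 0.00108. For Acacb the authors' deposited tables give 7.27e-05 and 0.0035. For Acaca and Btd, which are not on the list, the authors' deposited table of all probe sets has ratios of 0.890 and 0.898. Its p-values for them are 0.0019 and 0.0243, and the heading does not say whether they were adjusted.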
